A study of Mus musculus with 6 samples.

Results

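The 8 genes described here encode the peroxisome proliferator-activated receptors (Ppara, Ppard and Pparg), 2 retinoid X receptors (Rxra and Rxrb), the coactivators Ppargc1a and Ppargc1b, and the orphan receptor Esrra. They were taken by gene symbol from the 23399 genes of the count table. All 8 had a row, and 7 of them passed the filter on low counts. The 6 libraries were made from polyadenylated RNA of CMT93 spheroids. CMT93 is a mouse colorectal carcinoma cell line, labelled as wild type, and it was grown on soft agar with a little Matrigel. The palmitate group (3 libraries) received 200 µM of this saturated fatty acid as the sodium salt, carried in ethanol and bound to bovine serum albumin. The vehicle group (3 libraries) received the same ethanol and albumin without palmitate. Each treatment ran for 1 week in monolayer and then 5 days in spheroids. The labels number the libraries of a group and do not say that each was a culture of its own. A p-value here therefore reflects the spread between libraries alone, and that spread may be technical.

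PPARs are nuclear receptors that bind fatty acids and their derivatives and act on DNA as a pair with a retinoid X receptor (RXR). PPARα drives fatty acid oxidation in liver, PPARδ is widely expressed and abundant in intestinal epithelium, and PPARγ directs fat cell formation and is also present in colon. The coactivator PGC-1α, the product of Ppargc1a, docks on these receptors and on the estrogen-related receptor ERRα, the product of Esrra, and raises the output of mitochondrial and oxidative genes.

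Total counts were 22516639 to 22852940 in the palmitate libraries and 18898896 to 21851987 in the vehicle libraries, with no overlap in depth. A gene was called where edgeR's two-sided quasi-likelihood test gave an adjusted p below 0.05. That held for 52.8% of the 14987 genes tested, of which palmitate raised 4110 (27.4% of those tested) and lowered 3805 (25.4%). The groups of libraries did not overlap for 57.8% of tested genes. Levels below are CPM, counts scaled to a common library size, after TMM normalization, and fold changes are palmitate over vehicle on the log2 scale.

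Spheroids grown with palmitate had 1.46-fold more message for Ppargc1a, slightly more for Pparg and Rxrb, and slightly less for Ppard and Rxra. Esrra and Ppara were not past the threshold, and Ppargc1b was too sparse to test. In all, 5 of 7 tested members were called, 3 higher and 2 lower, where 52.8% of all tested genes were called. Groups did not overlap for these same 5 members, where they did not overlap for 57.8% of all tested genes. In bulk RNA, fewer cells of a type and less RNA per cell cannot be told apart.

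**Figure D1:**
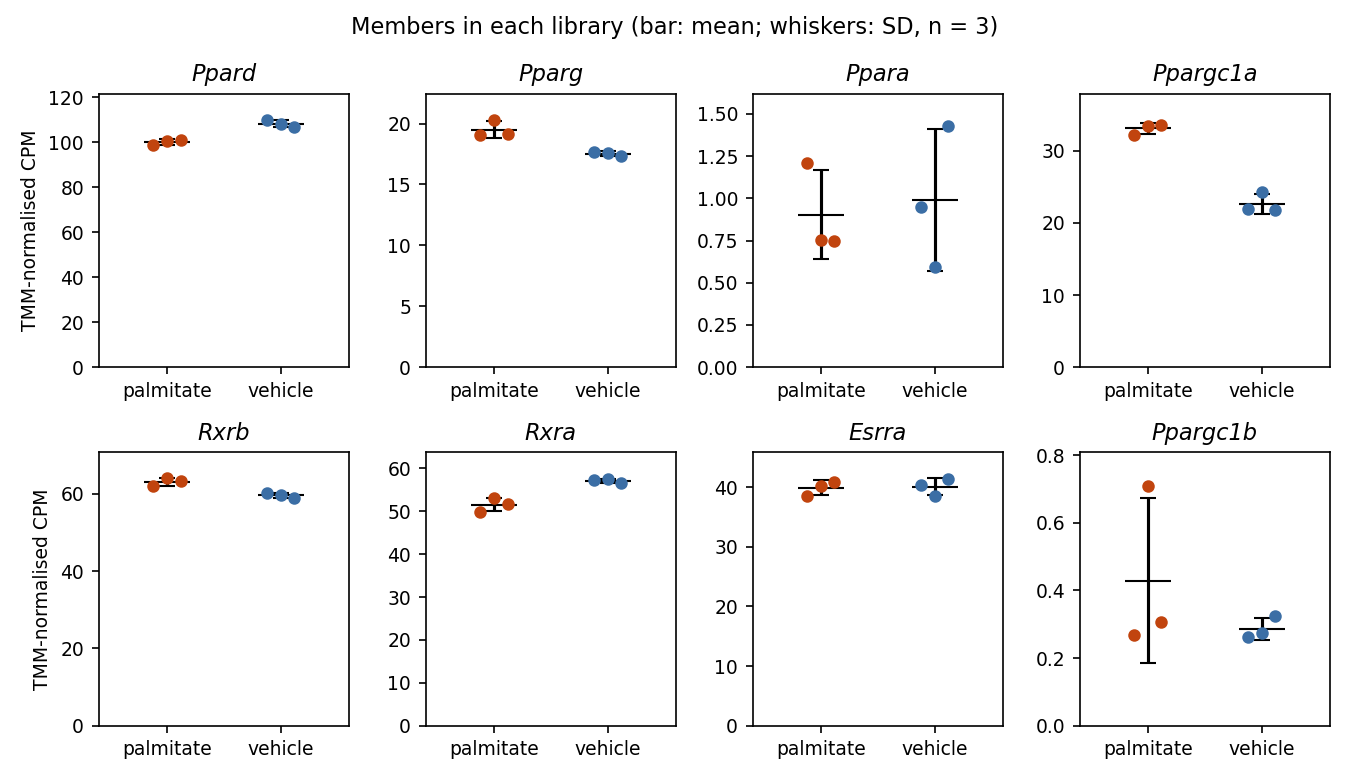
Normalised CPM of each of the 8 genes in each library, with palmitate on the left and vehicle on the right. Points are libraries, horizontal bars are means and whiskers are SD (n = 3); each vertical axis starts at 0 and has its own scale. Ppargc1a stands at 32.3 to 33.6 CPM with palmitate and 21.8 to 24.2 CPM with vehicle.

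Ppargc1a (ENSMUSG00000029167.14), which encodes PGC-1α, had 32.3, 33.5 and 33.6 CPM in palmitate replicates 1 to 3, against 21.9, 24.2 and 21.8 CPM in vehicle replicates 1 to 3. The lowest palmitate library lay above the highest vehicle library. The mean was 33.1 ± 0.750 CPM with palmitate and 22.7 ± 1.37 CPM with vehicle (SD, n = 3 libraries each), a log2 fold change of 0.55 (SE 0.0502, adjusted p = 2.34e-16, edgeR). Its 95% interval ran between 0.45 and 0.64. The rise was also called against a minimum change of 1.2-fold, and no other member was called by that test. It called 968 genes higher and 1307 lower of the 14987 tested. In the main test, which sets no minimum, 25.1% of all tested genes were called with an estimate of at least 1.2-fold. For an estimate of at least 1.4-fold the share was 14.5%. Among the tested members only Ppargc1a reached these sizes. The authors' deposited table gives Ppargc1a a log2 fold change of 0.55 with q = 6.43e-13 (DESeq2). Predicted genes that lie inside the Ppargc1a locus share no base with its exons in the reference annotation, and those with counts held at most 7 in any library.

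Ppargc1b (ENSMUSG00000033871.15) encodes PGC-1β, a close relative that coactivates many of the same receptors. Its counts were 6, 16 and 7 with palmitate and 5, 6 and 7 with vehicle, which did not pass the filter. The sums were 29 counts with palmitate (exact Poisson interval 19.4 to 41.6) and 18 with vehicle (10.7 to 28.4), intervals that cover counting error only. The ratio of normalised sums was 1.49 with a counting interval of 0.802 to 2.85, so a difference was not detectable at this depth.

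Ppard (ENSMUSG00000002250.17), which encodes PPARδ, had 98.7, 100.7 and 101.0 CPM with palmitate, against 110.0, 107.9 and 106.8 CPM with vehicle. All palmitate libraries lay below all vehicle libraries. The mean was 100.1 ± 1.25 CPM with palmitate and 108.2 ± 1.63 CPM with vehicle (SD, n = 3 libraries each), and the gene fell by 0.11 on the log2 scale (SE 0.0272, adjusted p = 0.000327, edgeR), a fall of 7.42%. The authors' deposited table gives -0.11 with q = 0.0149 (DESeq2).

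Pparg (ENSMUSG00000000440.13), which encodes PPARγ, went the other way. It had 19.1, 20.3 and 19.2 CPM with palmitate, against 17.7, 17.6 and 17.4 CPM with vehicle, and the groups did not overlap. The log2 fold change was 0.15 (SE 0.0590, adjusted p = 0.0231, edgeR), an increase of 11.2%. This call did not hold throughout: the adjusted p was 0.158 with DESeq2 and between 0.0532 and 0.102 without palmitate replicate 2 or vehicle replicate 2 or 3. The authors' deposited table gives 0.16 with q = 0.162. A predicted gene on the opposite strand, not analysed here, covers 513 bases of Pparg exons in the reference annotation.

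Ppara (ENSMUSG00000022383.14), which encodes PPARα, was near the limit of detection. Its counts were 27, 17 and 17 with palmitate and 18, 13 and 31 with vehicle, and the groups overlapped. The log2 fold change was -0.13 with a 95% interval between -0.67 and 0.41 (adjusted p = 0.711, edgeR), which allows a change in either direction. Its sign turned without vehicle replicate 3, to 0.25.

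Rxra (ENSMUSG00000015846.16) encodes RXRα. It had 49.9, 53.0 and 51.6 CPM with palmitate, against 57.4, 57.5 and 56.6 CPM with vehicle, and all palmitate libraries lay below all vehicle libraries. It fell by 0.15 on the log2 scale (SE 0.0365, adjusted p = 0.000290, edgeR), or by 9.90%. Rxrb (ENSMUSG00000039656.18) encodes RXRβ. It had 62.1, 64.0 and 63.3 CPM with palmitate, against 60.3, 59.6 and 59.0 CPM with vehicle, and the groups did not overlap. Its log2 fold change was 0.083 (SE 0.0343, adjusted p = 0.0351, edgeR), an increase of 5.93%. The call for Rxrb was lost with DESeq2 (adjusted p = 0.166) and without palmitate replicate 2 or 3 or vehicle replicate 2 or 3 (adjusted p between 0.0696 and 0.114). The authors' deposited table gives Rxra -0.15 with q = 0.0151 and Rxrb 0.086 with q = 0.169.

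Esrra (ENSMUSG00000024955.16), the ERRα gene, had 38.5, 40.3 and 40.9 CPM with palmitate, against 40.4, 38.5 and 41.4 CPM with vehicle. The groups overlapped. The log2 fold change was -0.0076 (adjusted p = 0.896, edgeR), and the 95% interval ran between -0.091 and 0.076. In the reference annotation 73 bases of Esrra exons lie inside Trmt112 on the opposite strand. On the same strand, 91 bases lie inside Mir6990, a gene not analysed here. No source used here gives the strand setting of the counting, so reads in overlaps of opposite strands may belong to either gene. Trmt112 itself had a log2 fold change of -0.10.

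**Figure D2:**
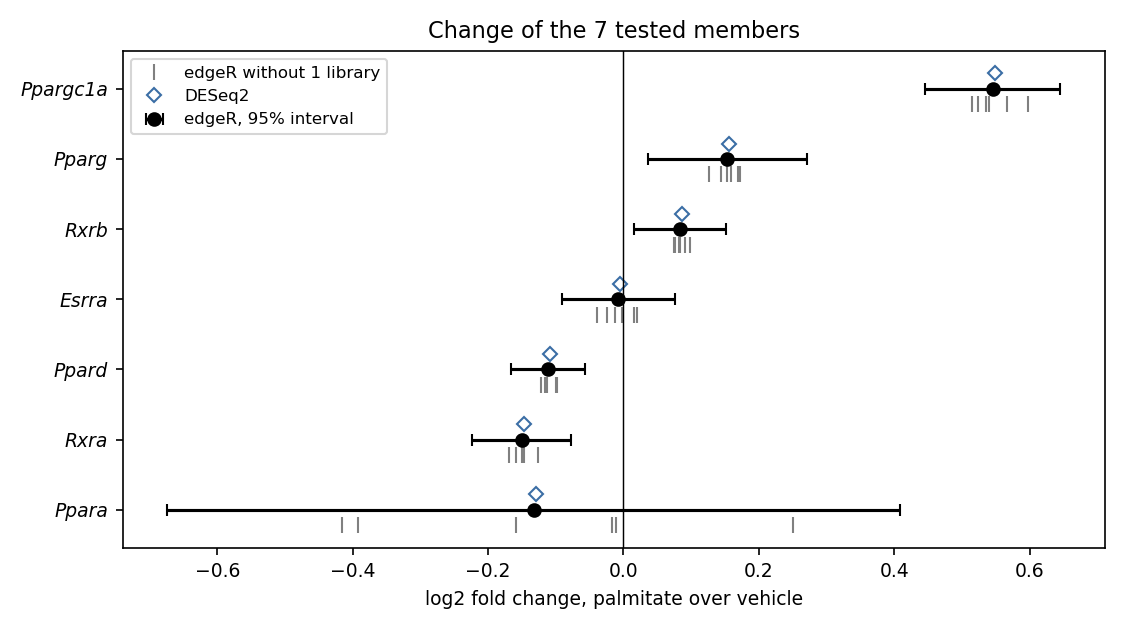
Log2 fold change of the 7 tested genes, palmitate over vehicle, with the edgeR estimate and its 95% interval as black points and bars, edgeR estimates without 1 library as grey ticks, and DESeq2 as open diamonds. Ppargc1a stands apart at 0.55, the intervals of Pparg, Rxrb, Ppard and Rxra exclude 0, and those of Esrra and Ppara include it.

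Promoter windows came from RefSeq (build GRCm38.p6, 250 bases before to 50 after an annotated start). They were kept for 7 of the 8 genes, 11 windows in all. Ppargc1b was not searched, because a filter on chromosome left it out. That filter was not applied to the windows of all genes given below. Windows are shown for Ppargc1a, which changed most, and for a Pparg start and an Rxra start that hold the hexamer AGGTCA. This is the core that PPAR, RXR and ERR proteins bind. Both strands were searched, and capitals mark AGGTCA or TGACG on either strand; TGACG is the core that cAMP-responsive factors bind. These are windows of the earlier build, whereas the counts used mm39 (GRCm39), and no binding was measured here.
Ppargc1a, chr5:51567676-51567975, minus strand: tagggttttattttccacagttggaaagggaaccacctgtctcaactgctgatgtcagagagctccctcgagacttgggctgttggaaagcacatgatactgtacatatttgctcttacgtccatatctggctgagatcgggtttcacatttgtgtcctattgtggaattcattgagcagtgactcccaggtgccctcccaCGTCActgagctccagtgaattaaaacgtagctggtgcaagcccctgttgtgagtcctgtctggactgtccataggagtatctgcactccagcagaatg
Pparg, chr6:115360894-115361193, plus strand: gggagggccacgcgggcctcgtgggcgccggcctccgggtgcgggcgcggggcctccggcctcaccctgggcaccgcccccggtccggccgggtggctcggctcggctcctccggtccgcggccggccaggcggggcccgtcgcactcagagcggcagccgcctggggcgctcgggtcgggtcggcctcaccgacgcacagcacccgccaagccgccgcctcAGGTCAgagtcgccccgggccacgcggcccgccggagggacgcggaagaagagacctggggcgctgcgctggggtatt
Rxra, chr2:27709042-27709341, plus strand: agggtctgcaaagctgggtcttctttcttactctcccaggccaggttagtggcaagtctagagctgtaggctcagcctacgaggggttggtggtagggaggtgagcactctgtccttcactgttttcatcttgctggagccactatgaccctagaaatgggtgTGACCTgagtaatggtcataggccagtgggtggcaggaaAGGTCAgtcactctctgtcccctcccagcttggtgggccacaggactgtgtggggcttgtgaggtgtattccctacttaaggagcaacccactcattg

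AGGTCA was found in 3 of the 11 windows, at 2 starts of Pparg and 1 of Rxra, and in 16.3% of all 32851 windows of this length. TGACG was found in 4 of the 11, with a single match each in Ppargc1a, Ppara, Ppard and Rxrb, and in 20.8% of all windows. The paired form AGGTCANAGGTCA and the ERR form TCAAGGTCA, both of which contain AGGTCA, had no match in the 11 windows and occur in 0.0396% and 0.423% of all windows. A match or its absence in these windows is a description of the letters only.

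Levels were compared between genes after division by exon length, as CPM per kb of all annotated exons. Rxrb was highest, at 15.9 ± 0.251 CPM per kb with palmitate and 15.01 ± 0.165 with vehicle (SD, n = 3 libraries each). Ppard followed with 13.3 ± 0.166 with palmitate and 14.4 ± 0.218 with vehicle. Then came Rxra (9.43 with palmitate, 10.5 with vehicle), Esrra (9.09 with palmitate, 9.15 with vehicle), Pparg (6.60 with palmitate, 5.94 with vehicle) and Ppargc1a (5.02 with palmitate, 3.44 with vehicle). Ppara had 0.236 CPM per kb with palmitate and 0.258 with vehicle, and Ppargc1b had 0.107 with palmitate and 0.0718 with vehicle. Rxra and Esrra overlapped in their library ranges with palmitate, and no other neighbours in this order overlapped in either group. The order rests on the length used: by the longest transcript, Ppard (26.9 CPM per kb with palmitate) stood above Rxrb (24.0) and Esrra (16.03) above Rxra (10.5), while Pparg, Ppargc1a, Ppara and Ppargc1b kept their places.

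**Figure D3:**
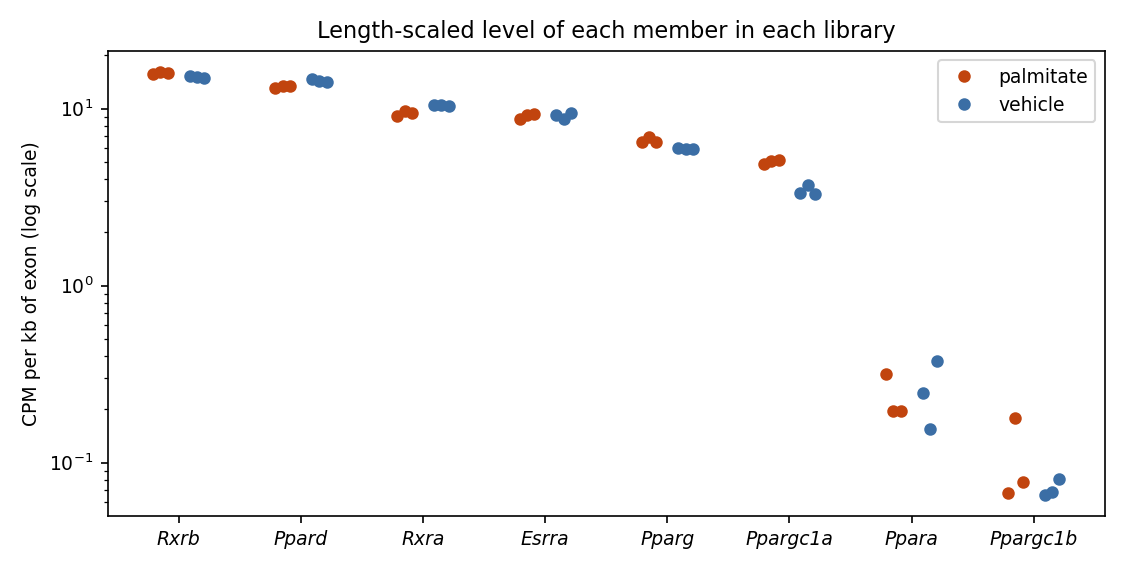
Length-scaled level of each gene in each library, in CPM per kb of exon on a log axis, with palmitate libraries left of vehicle libraries for each gene. Ppara and Ppargc1b lie at 0.373 CPM per kb or below, and the other 6 genes between 3.31 and 16.1.

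The makeup of the receptor messages differed between the groups by 3.83 to 3.91 percentage points for Ppard, Pparg, Rxra and Rxrb. Of the summed length-scaled PPAR level, Ppard held 66.1% ± 0.665 with palmitate and 69.9% ± 0.399 with vehicle, and Pparg held 32.7% ± 0.717 with palmitate and 28.8% ± 0.210 with vehicle (SD, n = 3 libraries each). Ppara held 1.17% with palmitate and 1.25% with vehicle. For RXR, Rxrb held 63.1%, 62.4% and 62.8% in the palmitate libraries, against 59.1%, 58.8% and 58.9% in the vehicle libraries, and Rxra held the rest. For Ppard, Pparg, Rxra and Rxrb the groups did not overlap, and each exact two-sided permutation test gave p = 0.1, the smallest that 3 against 3 libraries allow. The summed PPAR level was 20.2 ± 0.280 CPM per kb with palmitate and 20.6 ± 0.243 with vehicle, with overlapping groups (exact permutation p = 0.2). The summed RXR level was 25.3 ± 0.534 with palmitate and 25.5 ± 0.235 with vehicle (exact permutation p = 0.7). The sum of Ppargc1a and Ppargc1b was 5.13 ± 0.152 with palmitate and 3.51 ± 0.205 with vehicle (exact permutation p = 0.1, the smallest possible), and Ppargc1a held 97.9% of it in both groups.

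Ratios of raw counts within a library do not depend on normalization. The count ratio of Rxrb to Rxra was 1.24, 1.21 and 1.23 with palmitate and 1.05, 1.04 and 1.04 with vehicle. That of Pparg to Ppard was 0.193, 0.201 and 0.190 with palmitate and 0.161, 0.163 and 0.162 with vehicle. For Ppargc1a to Esrra, its receptor partner, it was 0.838, 0.830 and 0.822 with palmitate and 0.542, 0.629 and 0.527 with vehicle. In each of these ratios every palmitate library lay above every vehicle library (exact permutation p = 0.1 each, the smallest possible; 5 ratios were computed).

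**Figure D4:**
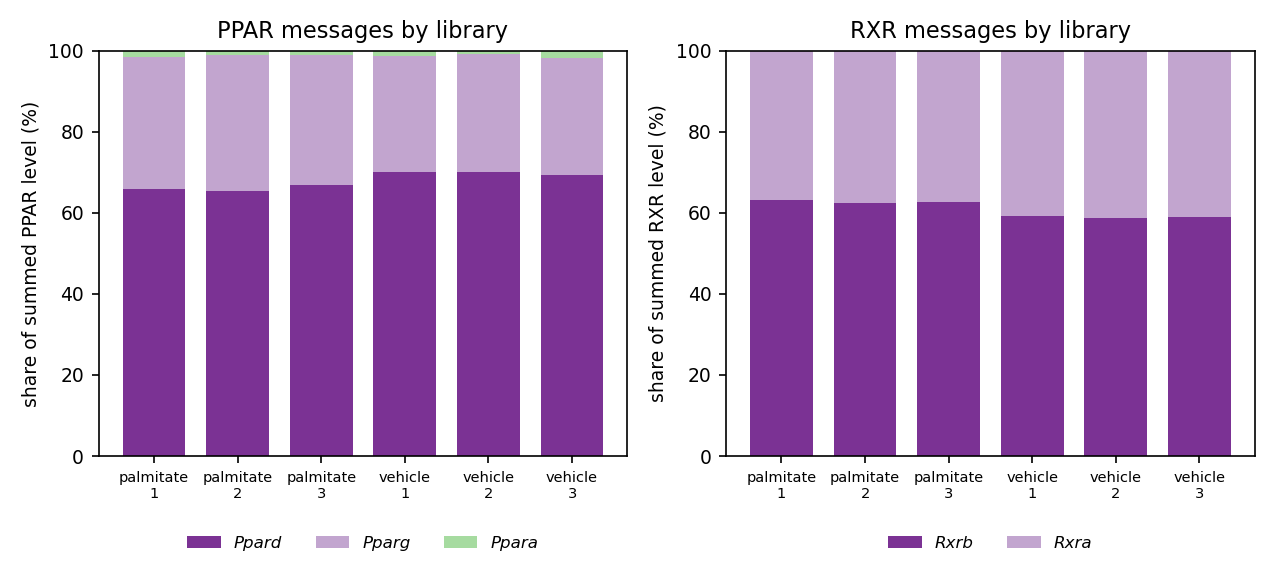
Share of the summed length-scaled level held by each PPAR gene (left) and each RXR gene (right), in percent, as stacked bars for each library with palmitate first. Ppard and Rxrb hold the largest shares in every library, with Ppard at 65.5% to 66.8% with palmitate and 69.5% to 70.2% with vehicle.

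Among 13222 other genes of at least 1 CPM, the 3 whose centred log2 CPM over the 6 libraries lay nearest to Ppargc1a were Tmem88, Id3 and Crip2, at Euclidean distances of 0.0673, 0.0777 and 0.0799. The 3 nearest to Rxra were Mov10, Cpt1c and Sh2b3, at 0.0221, 0.0252 and 0.0278. Their log2 fold changes were 0.57, 0.51 and 0.56 beside Ppargc1a and -0.14, -0.17 and -0.14 beside Rxra. Choosing genes by distance over these same libraries makes such likeness certain. Cpt1c was not called (adjusted p = 0.119, edgeR).

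Among other receptors that pair with RXR, and Rxrg, 14 genes were listed, of which Rxrg and Thrb were not analysed here and 9 were tested. Palmitate raised 4 of these and lowered 2, and 3 missed the threshold, so 66.7% were called, against 52.8% of all tested genes. Their median log2 fold change was 0.032, against 0.00068 over all tested genes. This median was 0.0042 without vehicle replicate 2, 0.060 without vehicle replicate 1 and 0.016 after thinning to the shallowest library. Vdr, the vitamin D receptor, had 56.2, 53.9 and 55.5 CPM with palmitate, against 82.4, 80.5 and 78.2 CPM with vehicle (log2 fold change -0.54, SE 0.0335, adjusted p = 1.22e-25, edgeR). Every palmitate library was well below every vehicle library. Thra, a thyroid hormone receptor, also fell by 0.54 on the log2 scale (16.6 CPM with palmitate and 24.2 CPM with vehicle). The orphan receptors Nr4a1 and Nr4a2 rose by 0.34 and 0.40, and both are also immediate early genes. Rara, a retinoic acid receptor, rose by 0.23 (adjusted p = 1.70e-05, edgeR) and is named after its value was seen.

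All 10 listed coactivators beyond the 8 genes were tested, with 3 higher, 3 lower and 4 not past the threshold (median 0.027). The called share was 60%, against 52.8% of all tested genes. Ncoa6 (0.21), Ncoa1 (0.23) and the Mediator subunit gene Med1 (0.25) rose, and Smarcd3, a chromatin remodelling subunit, fell by 0.30. Ncoa3 fell by 0.072, a call lost under DESeq2, after thinning, with no count filter, and when palmitate replicate 1 or 3 or vehicle replicate 2 was left out. Leaving out palmitate replicate 1, using DESeq2 or applying no count filter each left 1 coactivator called lower. All 8 listed corepressors were tested, with 3 higher, 0 lower and 5 not past the threshold (median 0.038). Of these corepressors 37.5% were called, below the 52.8% of all tested genes. Nrip1, which encodes RIP140, a repressor of oxidative genes, rose to 47.4 ± 0.469 CPM with palmitate, against 35.2 ± 0.895 CPM with vehicle (SD, n = 3 libraries each; log2 fold change 0.43, adjusted p = 1.56e-15, edgeR). Ncor1 (0.15) and Gps2 (0.18) rose less.

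Of the enzymes that modify PGC-1α, 9 of 10 were tested, with 4 higher, 1 lower and 4 not past the threshold (median 0.085, or 0.029 without vehicle replicate 2). In this list 55.6% were called, close to the 52.8% of all tested genes. Kat2a, the acetyltransferase GCN5, which represses PGC-1α, had 88.3, 90.3 and 92.6 CPM with palmitate, against 72.9, 68.4 and 70.3 CPM with vehicle (log2 fold change 0.36, SE 0.0313, adjusted p = 1.47e-17, edgeR). No palmitate library overlapped a vehicle one. Subunits of the AMP-activated kinase differed in direction: Prkab1 fell by 0.13, and Prkab2 rose by 0.18 (adjusted p = 0.00635, edgeR), a call lost with DESeq2 (adjusted p = 0.0818) and without palmitate replicate 1 (adjusted p = 0.0526, edgeR). Prkaa1 (0.021) and Prkag1 (-0.047) were not called, and Prkab2, Prkaa1 and Prkag1 are named after their values were seen. Mapk14 and Prmt1 rose by 0.087 and 0.085. The call for Mapk14 was lost without vehicle replicate 2 (adjusted p = 0.0570, edgeR). Sirt1, the deacetylase that activates PGC-1α, stood at 0.10 on the log2 scale (adjusted p = 0.109, edgeR) and is named after its value was seen.

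Among ERR relatives and factors of mitochondrial transcription, 12 of 13 were tested, with 5 higher, 0 lower and 7 not past the threshold (median 0.090). In this list 41.7% were called, below the 52.8% of all tested genes. Gabpb1 (0.17), Tefm (0.25) and Tfb1m (0.26) rose. DESeq2 did not call Tefm (adjusted p = 0.0814) or Tfb1m (adjusted p = 0.119), and Tfb1m was also not called without palmitate replicate 3 or vehicle replicate 1 or 2. Esrrb, a low relative of Esrra, had 1.49 CPM with palmitate and 1.03 CPM with vehicle (log2 fold change 0.55, adjusted p = 0.0376, edgeR), a call lost with DESeq2 (adjusted p = 0.214), with no count filter and without palmitate replicate 1 or 3 or vehicle replicate 2 or 3. With DESeq2 only 1 gene of this list was called higher, and 2 were without palmitate replicate 3 or vehicle replicate 2, and 3 without vehicle replicate 1 or 3. Pprc1, the third PGC-1 relative, is named after its value was seen: its change was -0.040 on the log2 scale (adjusted p = 0.175, edgeR), and it had 22.1 ± 0.812 CPM per kb with palmitate and 22.7 ± 0.332 with vehicle (SD, n = 3 libraries each), above every one of the 8 genes on this scale, though below Ppard by the longest transcript.

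**Figure D5:**
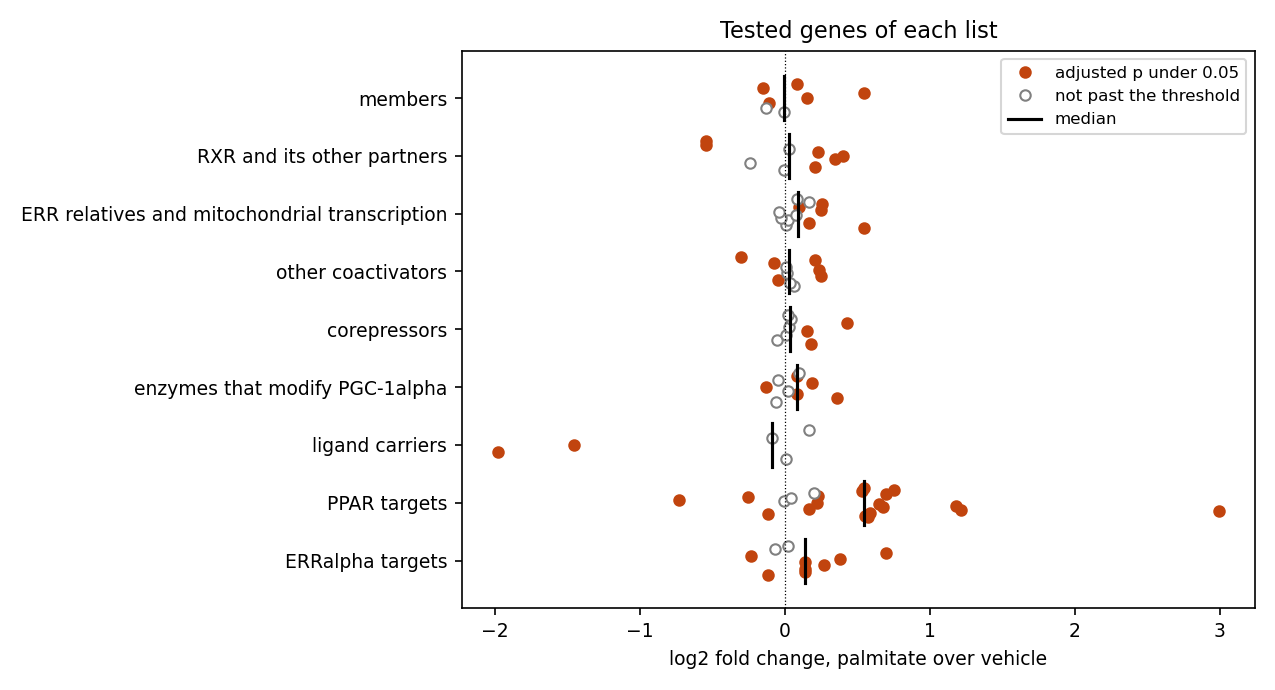
Log2 fold change, palmitate over vehicle, of every tested gene in each list, 1 row per list. Filled points had an adjusted p under 0.05 (edgeR), open points did not, and black lines are list medians; the PPAR targets have a median of 0.55, and 2 ligand carriers lie at -1.45 and -1.98.

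Of 10 listed proteins that carry fatty acids or retinoids to these receptors, 5 were tested, with 0 higher, 2 lower and 3 not past the threshold (median -0.086). The called share was 40%, below the 52.8% of all tested genes. The median was -0.48 without palmitate replicate 2 and -0.18 with limma-voom. Fabp5, a fatty acid carrier known to bring ligand to PPARδ, had 123, 115 and 121 CPM with palmitate, against 317, 325 and 339 CPM with vehicle (log2 fold change -1.45, SE 0.0234, adjusted p = 1.82e-53, edgeR). Fabp4, a carrier of fat cells and a PPARγ target, had 0.984, 0.799 and 1.14 CPM with palmitate, against 3.95, 3.32 and 4.34 CPM with vehicle (log2 fold change -1.98, SE 0.186, adjusted p = 6.23e-16, edgeR). Both groups stood clear of each other for either gene. Fabp5 has close copies in the mouse genome that can share reads, so its level is uncertain.

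Of 31 listed PPAR targets 21 were tested, with 15 higher, 3 lower and 3 not past the threshold. Fabp4, described above as a PPARγ target, was listed with the ligand carriers and is in neither these counts nor the median. Its log2 fold change was -1.98. Of the tested targets 85.7% were called, against 52.8% of all tested genes. The median of the targets was 0.55, against 0.00068 over all tested genes. Those with the smallest p, Cpt1a, Plin2, Angptl4 and Ucp2, rose by 0.65, 0.53, 1.18 and 0.55. Ehhadh, a peroxisomal oxidation enzyme, fell to 3.49 ± 0.435 CPM with palmitate, against 5.86 ± 1.59 CPM with vehicle (SD, n = 3 libraries each; log2 fold change -0.73, adjusted p = 3.07e-05, edgeR). The medium-chain dehydrogenase gene Acadm fell by 0.11. Of the targets too sparse to test, Plin5, a lipid droplet protein gene, is named after its value was seen: it had 27 counts with palmitate and 6 with vehicle (ratio 4.17, counting interval 1.69 to 12.4).

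Of 11 genes that ERRα and PGC-1α switch on, 10 were tested, with 6 higher, 2 lower and 2 not past the threshold (median 0.14). The called share was 80%, against 52.8% of all tested genes. The citrate cycle gene Idh3a had 165, 159 and 168 CPM with palmitate, against 129, 128 and 122 CPM with vehicle (log2 fold change 0.38, SE 0.0246, adjusted p = 3.02e-24, edgeR). All palmitate libraries were higher. The respiratory genes Atp5b (0.14) and Cox5b (0.27) also rose, while Mfn2, a mitochondrial fusion gene, fell by 0.24. Acadm, which is also in the PPAR list, was the other that fell. Against a minimum change of 1.2-fold, 2 of the 10 tested ERRα targets were called higher and 0 lower. Of all 14987 tested genes, 968 were higher and 1307 lower by that test.

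Of 10 listed colon epithelial markers Cdx1 was not analysed here, and some of the others were abundant. Epcam averaged 657 CPM with palmitate and 673 CPM with vehicle. The summed level of the 9 markers present was 5320 to 5408 CPM with palmitate and 6057 to 6107 CPM with vehicle. Nearly all of it was Cdh1, Krt8, Krt18 and Epcam, while Cdh17 averaged 16.1 CPM with palmitate and 19.4 CPM with vehicle. Of 8 tested, 4 were lower: the keratin genes Krt18 (-0.42, 1079 CPM with palmitate and 1445 CPM with vehicle) and Krt8 (-0.24), and the cadherin genes Cdh17 (-0.28) and Cdh1 (-0.045). The 1 higher was Cdx2, an intestinal transcription factor gene (0.51, 2.46 CPM with palmitate and 1.72 CPM with vehicle). So 62.5% of the tested epithelial markers were called, against 52.8% of all tested genes. The call for Cdx2 was lost with DESeq2 (adjusted p = 0.123) and when palmitate replicate 1 or 3 or vehicle replicate 2 was left out, and that for Cdh1 when palmitate replicate 3 was. Krt20 was too sparse to test, with 16 counts over the palmitate libraries and 9 over the vehicle libraries. The summed level of the fat cell markers was 1.06 to 1.21 CPM with palmitate and 3.41 to 4.43 CPM with vehicle, and it was nearly all Fabp4, with the 2 other markers present averaging at most 0.148 CPM; the defining markers Adipoq, Lep and Plin1 were not analysed here. Fibroblast markers summed to 0.976 to 1.101 CPM with palmitate and 1.339 to 2.05 CPM with vehicle. Leukocyte markers summed to 9.72 to 10.8 CPM with palmitate and 7.42 to 9.11 CPM with vehicle, nearly all of it Cd68, with Ptprc at 0.266 CPM with palmitate and 0.836 CPM with vehicle. Hepatocyte markers summed to 0.308 to 0.984 CPM with palmitate and 0.185 to 0.819 CPM with vehicle. The part of these shifts in the changes of the receptors and coactivators was not tested.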

How the data were processed

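Polyadenylated RNA of 3 palmitate and 3 vehicle samples was sequenced; per the labels' protocols the library kit marks strand. The authors deposited raw counts per gene, with symbols of Gencode vM30. Their processing notes name FastQC 0.11.8, STAR 2.6.1, HTSeq, DESeq2 1.34.0 and builds mm39 and GRCm39; no source used here gives HTSeq's strand setting. The authors' deposited gene table holds DESeq2 log2 fold changes, p-values and q-values, per the file headers and column description.

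Groups came from the sample titles. Tests across genes used edgeR 4.0.16 under R 4.3.3 on the raw counts (TMM, filterByExpr with a minimum count of 10, glmQLFit with robust estimation, glmQLFTest, two-sided), with Benjamini-Hochberg adjustment over all 14987 tested genes and a threshold of 0.05. SE is the log2 fold change over the root of F. Exon lengths came from Gencode vM21 by Ensembl identifier. Exact permutation tests used scipy 1.17.1, and figures matplotlib 3.10.9. The genes and lists were chosen with earlier results of these data known. Genes named from a list were its 4 called genes of smallest p and up to 2 called in the rarer direction; all 8 members are given, and the 3 genes nearest to the called member of smallest p in each direction. Atp5b was counted under either symbol. A listed gene with no row was not analysed here. Some listed genes are counted but not reported by name here.

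On simulated counts for this comparison (14815 genes), 60.0% of the genes given a 1.2-fold change were called. The share was 85.7% for 1.5-fold, 89.8% for 2-fold and 100.0% for 3-fold, and 7 unchanged genes were called. The simulation was a single run with the same spread for every gene, so these shares do not cover genes that vary more. Pairs of libraries of a group gave chi-square values of 1.20 to 1.38 per degree of freedom (genes with at least 20 summed counts), so none was taken for a copy. These values lie only a little above what counting error alone gives. The common coefficient of variation between libraries, beyond counting error, was 1.28% (edgeR). With so small a spread, changes of a few percent can be called. With 18898896 to 22852940 counts per library, counting error is large for Ppara and Ppargc1b and small for the others. The alternatives tried were DESeq2 1.42.0, limma-voom (limma 3.58.1), size factors by median of ratios, no filter on low counts, glmTreat at 1.2-fold, the replicate number as a block, leaving out each library, and another exon length. Thinning to the shallowest library was added after the data were seen, since every palmitate library was deeper.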

Additional observations from a re-analysis of the deposited data

How the results depend on the processing

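Ppargc1a kept its rise and its call under all 13 alternatives, with log2 fold changes of 0.52 to 0.60 when single libraries were left out. Ppard (-0.12 to -0.10 without single libraries) and Rxra (-0.17 to -0.13) lost their calls only against a minimum change of 1.2-fold, at -0.11 and -0.15. Pparg (0.13 to 0.17 without single libraries) and Rxrb (0.074 to 0.098) kept their direction but lost their calls against 1.2-fold (0.15 and 0.083), with DESeq2 (0.16 and 0.086), after thinning (0.14 and 0.075) and without several single libraries. So 1 member was called higher with DESeq2, against 1.2-fold and after thinning, and 1 to 3 without single libraries, beside 0 called lower against 1.2-fold. Esrra turned to 0.0019 with no count filter and ranged over -0.039 to 0.020 without single libraries, and Ppara over -0.42 to 0.25; neither was called.

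Against 1.2-fold, 968 of the 14987 tested genes were called higher and 1307 lower. Called higher were 2 of 9 tested RXR partners, 0 of 12 factors of mitochondrial transcription and 0 of 10 other coactivators. So were 1 of 8 corepressors, 1 of 9 enzymes that modify PGC-1α and 2 of 10 ERRα targets. Called lower were 0 of 10 coactivators, 0 of 9 modifying enzymes, 0 of 10 ERRα targets and 1 of 21 PPAR targets. With DESeq2, 1 factor of mitochondrial transcription was higher and 1 coactivator lower; with no count filter, 1 coactivator was lower. Without single libraries, the factors of mitochondrial transcription had 2 to 6 higher and 0 to 1 lower, the coactivators 1 to 2 lower and the modifying enzymes 1 to 2 lower. The cause was not tested. By the longest transcript, levels per kb were 26.9 with palmitate and 29.0 with vehicle for Ppard, 9.18 and 8.25 for Pparg, 10.5 and 11.7 for Rxra, 24.0 and 22.7 for Rxrb, and 16.03 and 16.12 for Esrra, in the same order of groups. The differences in share, palmitate minus vehicle, were then -3.27 percentage points for Ppard, 3.31 for Pparg, -3.53 for Rxra and 3.53 for Rxrb, against -3.83, 3.91, -3.85 and 3.85 by all exons.

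No pairing of the samples by replicate number was seen (correlations of same-numbered deviations -0.0018, 0.0067 and 0.021). The deviations lie close to counting error, so this check could miss a pairing. With the replicate block 4112 genes were higher and 3821 lower, 3 members higher and 2 lower, with no member's call changed. Of 33 genes named from the lists, 14 kept direction and call under all 13 alternatives. With the 1.2-fold test set aside, 28 did. Depth limits Ppara and Ppargc1b, whose summed counts were 61 and 29 with palmitate and 62 and 18 with vehicle.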
